A study of Mus musculus with 20 samples.

Results

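Protein restriction on a low-fat diet was examined in the left ventricle of ageing mice, as 5 mice fed a low protein (LP) diet compared to 5 mice fed a normal protein (NP) diet. These 10 libraries were taken from the 20 of the series by the diet in the sample labels. The other 10 came from mice on a high-fat diet with normal protein (HF) or low protein (HF + LP), and served only for the shared estimate of spread and for a side-by-side reading of the same protein contrast. Casein made up 20% of the NP diet and 5% of the LP diet. According to the study's methods the diets were isocaloric, the mice were male and group-housed, and the strain is not given in the sources used here. Every label states an age of 18 months, whereas the methods place collection at 16 months, after 4 months of diet. Frozen left ventricular tissue was used for QuantSeq 3′ mRNA libraries, in which only the 3′ end of a transcript is read, so counts carry no length term. Each library is named here by diet and by the animal number in its label, and each was treated as 1 mouse. The label of LP animal 5 adds the words sample 2, which were not explained.

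Cells read the supply of amino acids through the kinase GCN2, which senses uncharged tRNA and raises translation of the transcription factor ATF4, and through mTORC1, a kinase complex on lysosomes that promotes protein synthesis and restrains autophagy. When insulin and growth factor signalling falls, FOXO transcription factors enter the nucleus and raise genes of protein breakdown and of insulin sensitivity. The heart burns mostly fatty acids and makes little fat itself, so high levels of fatty acid synthesis genes are typical of fat cells rather than of cardiomyocytes. The atria and the ventricles also differ in the genes they express, and the atrial natriuretic peptide Nppa and the atrial myosin light chain Myl7 are standard marks of atrial muscle.

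LP mice were lighter at collection than NP mice. Body weights in the labels were 33.3, 31.1, 36.9, 29.9 and 32 g in LP animals 2, 5, 13, 15 and 20. They were 46.9, 52.3, 46, 33.3 and 36.7 g in NP animals 3, 4, 5, 6 and 8. The lightest NP mouse weighed as much as LP animal 2 and less than LP animal 13, so the groups overlapped, and the difference of −10.4 g passed a two-sided exact permutation test at p = 0.0397. It no longer passed without any 1 of LP animals 5, 15 and 20 or NP animals 3, 4 and 5 (exact p = 0.0794 each). Total counts lay between 13663663 and 23331907 per library. Transcripts of the mitochondrial genome took 43.2 ± 2.48% of the counts in NP and 40.3 ± 3.94% in LP (SD, n = 5), with overlapping groups (exact permutation test, p = 0.222). Ventricular marker genes, 10 in all, summed to between 730294 and 867735 normalised counts in NP. In LP they summed to 815769, 738835, 539809, 753702 and 542436 in animals 2, 5, 13, 15 and 20, so animals 13 and 20 lay below every NP mouse. Myl2, the ventricular myosin light chain, was counted in every library, with 30491 normalised counts in LP animal 13, 80095 in animal 20, 97974 to 131661 in the other LP mice and 88439 to 143668 in NP. Members of the list differed. Myl3 had 64503 in animal 13 and 106026 in animal 20, against 144564 to 184395 in NP. In animal 13, Myh6 (100059) and Actc1 (206060) lay within their NP ranges of 86689 to 110557 and 204881 to 234501. In animal 20, Myh6 (67685) and Actc1 (150454) lay below NP. The sum thus pools genes that went different ways in animal 13. In bulk tissue, fewer cells of a type and less RNA per cell cannot be told apart.

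The LP libraries resembled each other less than the NP libraries did. Over genes with a base mean over 50, which is the mean normalised count over the 20 libraries, each library was correlated with the 4 others on its diet, and the median r was between 0.961 and 0.979 in NP. It was 0.962 in LP animal 2, 0.949 in animal 15, 0.944 in animals 5 and 20, and 0.908 in animal 13. The LP libraries parted in 2 ways, described below. Animals 13, 20 and, for a few genes, 15 carried high counts of fat, atrial and lymphoid genes, and animals 2 and 5 carried low counts of circadian output genes. Many results that rest on these libraries are given with and without them.

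No gene was called in LP compared to NP (0 of 13991 tested, 0%), at a Benjamini-Hochberg adjusted p under 0.01 in edgeR's quasi-likelihood fit and a base mean over 50. The smallest adjusted p was 0.383. Before adjustment, 703 genes were higher (5.02% of those tested) and 309 lower (2.21%) in LP at p under 0.05. Without LP animals 13 and 20, these counts were 235 (1.66%) and 144 (1.02%), and again no gene was called. Without LP animals 2 and 5, 1544 genes were higher and 957 lower at that unadjusted p, of 14412 tested. In that setting 4 genes were called, all higher in LP (0.0278%), which were Bmp10, Elovl6, Fasn and Stxbp2. At an edgeR adjusted p under 0.05 and the same base mean, 102 genes passed there. DESeq2 with all 4 groups also called 4 genes (0.0286%), with Bmp10, Elovl6 and Fasn higher and 1700120C14Rik lower, whereas DESeq2 with only the LP and NP libraries called 0 (smallest adjusted p = 0.0169). The higher calls of both settings lie among genes whose counts came from 2 or 3 of the 5 LP mice.

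Genes that were high in a minority of the LP mice were collected by a rule on log2 CPM, the library-scaled counts on a log2 scale. A gene was taken as high in 1 or 2 LP libraries when those lay at least 1 log2 unit above the highest NP library and the other LP libraries lay at or below it. Of 10159 genes with a base mean over 50, 74 did so (0.728%), against 2 genes in the mirrored count for NP. Allowing the other LP libraries to lie above NP by less than 1 log2 unit, a reading added after the values were seen, gave 327 genes (3.22%), against 11 for NP. Of these 327, 155 were high in LP animal 13 alone, 132 in animal 20 alone, 24 in both, and 7 in animals 13 and 15. Animals 2 and 5 entered only 4 and 6 of them. No gene lay 1 log2 unit above all NP libraries in 4 or more of the LP mice, and 4 genes did so in 3.

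**Figure D1:**
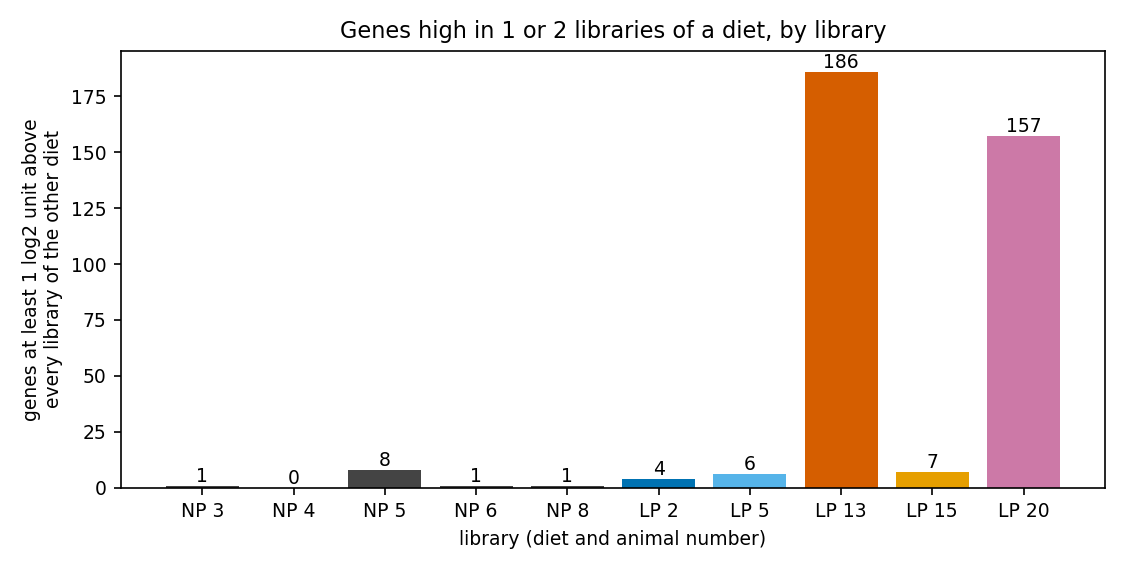
Number of genes (base mean over 50) that lay at least 1 log2 unit above every library of the other diet in 1 or 2 libraries, counted for each library on the horizontal axis by diet and animal number. LP animal 13 held 186 and LP animal 20 held 157 of these genes, and every other library held 8 or fewer.

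Fat cell genes made up the first set of such genes. Fasn, the synthase that builds fatty acids, had normalised counts of 434, 221, 15710, 241 and 2951 in LP animals 2, 5, 13, 15 and 20. In NP it lay between 169 and 258. Animals 13 and 20 stood far above all other mice, animal 2 stood slightly above NP, and animals 5 and 15 lay within the NP range. The log2 fold change was 4.20 (SE 0.871, edgeR adjusted p = 0.383), and 0.48 without animals 13 and 20. Scd1, a desaturase that makes oleate, had 12305 normalised counts in animal 13 and 2982 in animal 20, whereas the other 3 LP mice had 156 to 350 and NP had 121 to 473. Elovl6, which lengthens fatty acids, had 997 in animal 13, 265 in animal 20 and 45.2 in animal 2, against 12.3 and 12.6 in animals 5 and 15 and 5.25 to 12.9 in NP. With 3 LP mice over 1 log2 unit above NP, Elovl6 is not among the genes high in 1 or 2 LP libraries. The rate-setting carboxylase gene Acaca had 1635 and 370 in these 2 animals, against 113 to 134 in the other LP mice and 81.3 to 130 in NP.

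Many genes that define mature fat cells followed the same libraries. Adipoq, the hormone adiponectin made by fat cells, had 1208 normalised counts in LP animal 13 and 481 in animal 20, and between 10.6 and 31.5 in the other LP mice. NP mice were not free of it, with 10.5 to 201, and NP animal 6 had the most. Plin1, the coat protein of fat droplets in adipocytes, had 1194 in animal 13, 278 in animal 20, 2.05 to 34.6 in the other LP mice and 5.25 to 68.0 in NP. Both genes thus lay within or below the NP range in 3 of the 5 LP mice. Their log2 fold changes of 2.3 for Adipoq and 3.58 for Plin1 became −2.0 and −0.83 without animals 13 and 20. Of 20 adipocyte markers tested, 14 lay at least 1 log2 unit above all NP mice in animal 13 and 8 did so in animal 20, and none did in the other LP mice. Some members went the other way. Lep was highest in an NP mouse (74.0, against 61.0 in animal 13). Aqp7 had 196 in animal 13 and 255 in animal 20, against 298 to 459 in NP. Summed over the list, normalised counts were 13727, 11818, 43886, 11247 and 22987 in animals 2, 5, 13, 15 and 20, against 10809 to 17971 in NP.

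The thermogenic uncoupling protein gene Ucp1, which defines brown fat cells, had 6037 normalised counts in LP animal 13, 952 in animal 20 and 71.8 in animal 2. It had 7.18 and 8.82 in LP animals 5 and 15, and 0 to 15.8 in NP. LP animal 2 therefore lay above every NP mouse for this gene although it held no excess of Adipoq. Pygl, the liver-type glycogen phosphorylase, followed the same order, with 955, 266 and 105 in animals 13, 20 and 2, 76.9 and 79.4 in animals 5 and 15, and 39.6 to 92.1 in NP. Letmd1, which encodes a mitochondrial membrane protein, had 774 in animal 13 and 212 in animal 20, against 97.5 to 118 in the other LP mice and 78.0 to 118 in NP. Of 7 brown fat markers tested, 4 lay at least 1 log2 unit above all NP mice in animal 13, 1 in animal 20 and 1 in animal 2. Other members did not follow. In animal 13, Ppargc1b had 499, below the 821 to 1241 in NP, and Dio2 and Kcnk3 lay within their NP ranges. The list summed to 18589 in animal 13 and 8758 in animal 20, against 9039 to 10495 in NP.

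Of 15 atrial markers, 9 lay at least 1 log2 unit above all NP mice in LP animal 13, 2 in animal 15 (Bmp10 and Dkk3) and 1 in animal 20 (Bmp10). Nppa had 4687, 2145, 180285, 65007 and 19235 normalised counts in LP animals 2, 5, 13, 15 and 20. NP mice spanned 1676 to 40028, with NP animal 5 highest. Animals 13 and 15 lay above all NP mice, animal 15 by less than 1 log2 unit, while the other 3 LP mice lay within the NP range. The log2 fold change was 1.84 (SE 1.38, edgeR adjusted p = 0.850). It was 0.62 without animals 13 and 20 and −2.15 without animals 13, 15 and 20. Myl7 had 33675 in animal 13 and 10208 in animal 15, 20.5 to 3235 in the other LP mice and 398 to 9293 in NP. Over the 15 atrial markers, summed normalised counts were 9429, 5159, 275168, 100131 and 32604 in LP animals 2, 5, 13, 15 and 20, against 6338 to 67522 in NP. LP animal 5 thus had the lowest and animal 13 the highest atrial sum of these 10 mice.

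Bmp10, a growth factor of the TGF-beta family made mainly by atrial cardiomyocytes in the adult heart, differed from the other atrial genes in its NP background. It had 0, 1.03, 13692, 4485 and 1566 normalised counts in LP animals 2, 5, 13, 15 and 20. NP mice had 3.44 to 65.6. The 3 high LP mice lay far above every NP mouse, whereas the 2 low ones, at 1.03 or less, lay below every NP mouse. Its log2 fold change was 7.71 (SE 1.55, edgeR adjusted p = 0.383), and −4.73 without animals 13, 15 and 20. Among mice on high fat the highest count was 110 in HF and 16.7 in HF + LP, below each of these 3 LP mice. Other atrial genes were high on high fat too, with Nppa up to 140129 and Myl7 up to 30515 in HF, and the atrial sum reached 217079 in HF animal 1. Dkk3, a secreted glycoprotein on the atrial list, had 5615 in animal 13 and 1535 in animal 15 and 59.5 to 573 in the other LP mice, against 155 to 654 in NP.

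Lymphoid genes were high in LP animal 20. Trbc2, a constant region gene of the T cell receptor beta chain, had 6009 normalised counts in LP animal 20. The other LP mice had 13.3 to 39.6 and NP mice 16.5 to 20.6. Without animals 13 and 20 its log2 fold change of 6.09 became 0.24. Trbc1, its neighbour on chromosome 6 and near-identical in sequence, so that reads may be split between them, had 1532 in animal 20 and at most 12 elsewhere in the 10 mice. Lck, the kinase of the T cell receptor, had 1360 in animal 20, 23.6 in animal 5 and at most 10.1 in the other 8 mice. Bcl11b, a transcription factor of T cell commitment, had 1771 in animal 20, against 40.3 to 97.9 in the other 9. Arpp21, which is expressed in immature T cells and neurons, had 1310 against at most 26.5.

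All 14 tested markers of T and NK cells lay at least 1 log2 unit above every NP mouse in LP animal 20, and their sum there was 15491 normalised counts, against 306 to 467 in the other LP mice and 323 to 377 in NP. Trac and Nkg7 also lay that far above NP in animal 13, and Lck in animal 5. B cell genes followed less sharply. Igkc, the constant region of the kappa light chain, had 6763 in animal 20 and 1152 in animal 13, 117 to 237 in the other LP mice and 61.6 to 762 in NP. Ighm, the heavy chain of IgM, had 2683 in animal 20 and 601 in animal 13, 140 to 170 in the other LP mice and 90.5 to 434 in NP. Without animals 13 and 20 the log2 fold changes of 2.65 for Igkc and 1.92 for Ighm became −0.65 and −0.38. Of 17 B cell markers, 11 lay 1 log2 unit above all NP mice in animal 20, 2 in animal 13 and 1 in animal 5. The last was Cr2, a complement receptor, with 44.1 in animal 5 and at most 13.8 in NP.

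Outside the marker lists, Top2a, a topoisomerase of dividing cells, had 1243 normalised counts in LP animal 20 and 41.2 to 59.2 in the other LP mice, against 45.1 to 90.5 in NP. Ccl25, a chemokine of the thymus and gut, had 883 in animal 20, against 31.9 to 36.9 in the other LP mice and 20.3 to 34.1 in NP. None of the 16 endothelial, 14 fibroblast or 10 ventricular markers tested lay 1 log2 unit above all NP mice in any LP library. Other lists did include such genes, with 4 of 8 mesothelial and epicardial, 4 of 7 MHC class II, 3 of 10 nerve and Schwann cell, 4 of 31 myeloid and 1 of 12 smooth muscle and pericyte markers. Most of these were high in animal 13 or 20, and 1 myeloid marker was high in animal 2. Of 93 tested genes on the fat, atrial and lymphoid marker lists or the list of adipocyte and lipogenic genes, 58 were high in 1 or 2 LP libraries under the wider reading, beside 5.95% of all genes tested. All 5 LP mice lay on one side of all 5 NP mice in 0 of the 93, beside 0.786% of all genes tested, and nothing is read from that 0. Nothing is read from the 58 either, since these lists and the wider reading were chosen with the values known. Tissue other than ventricle at dissection and a change within the ventricle cannot be told apart from these counts, since nothing in the labels records what each sample held.

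**Figure D2:**
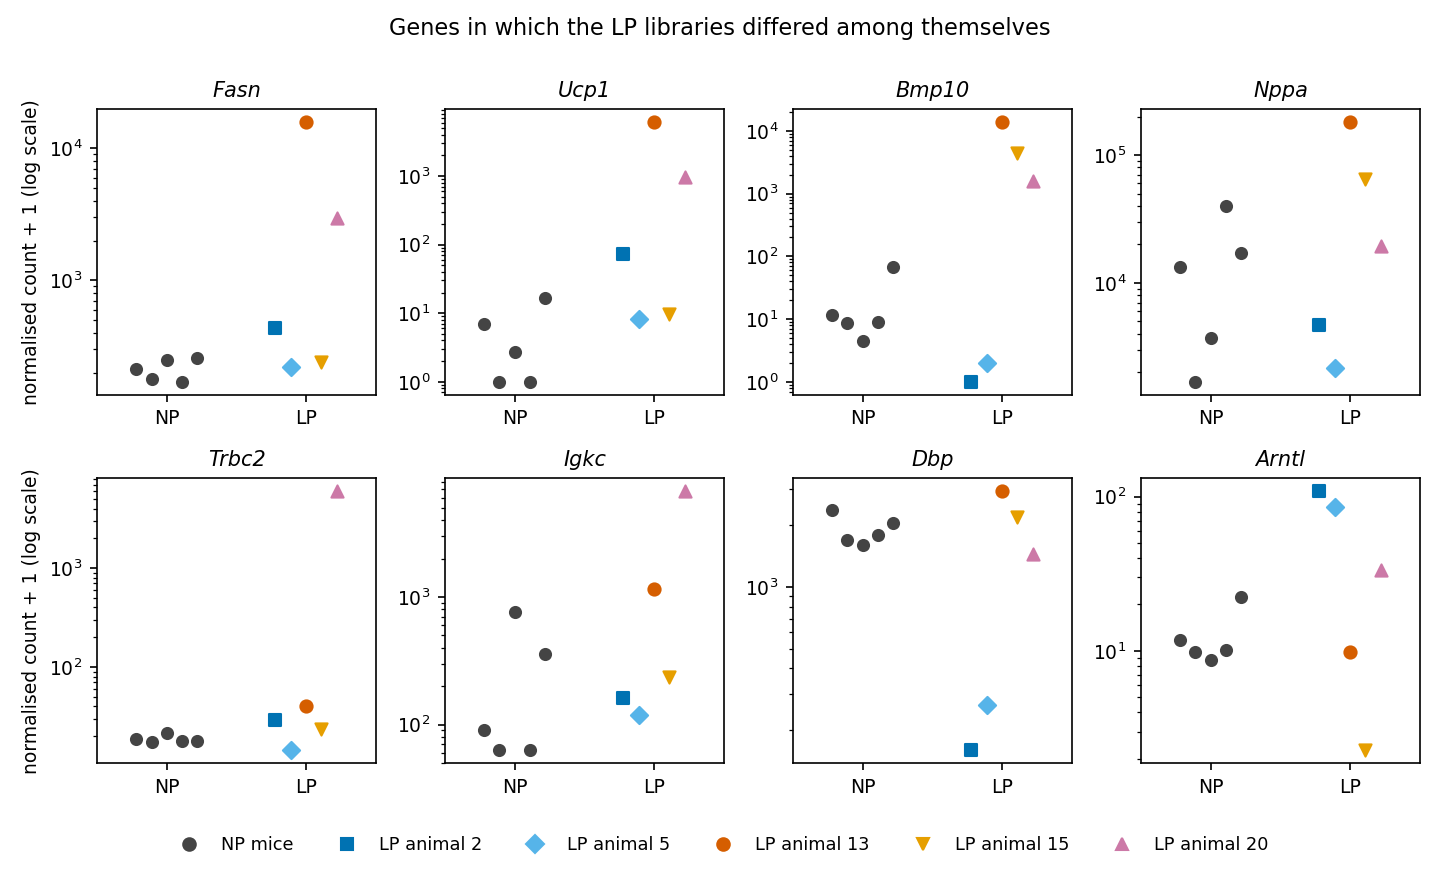
Normalised counts plus 1 on a logarithmic axis for 8 genes in each NP mouse (grey) and each LP mouse (marked by animal number). Fat (Fasn, Ucp1), atrial (Bmp10, Nppa) and lymphoid (Trbc2, Igkc) genes were high in LP animals 13, 15 or 20, while the clock genes Dbp and Arntl set animals 2 and 5 apart.

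The second division concerned the circadian clock, in which CLOCK and BMAL1 (the product of Arntl) drive genes with E-boxes in their promoters, among them the repressors Per and Cry and the output factors Dbp, Tef and Hlf, which in turn act through D-boxes. This division was found after the values were seen. Dbp had 158 and 265 normalised counts in LP animals 2 and 5. It had 2927, 2188 and 1447 in LP animals 13, 15 and 20 and 1592 to 2368 in NP. Animals 2 and 5 thus lay far below the other 8 mice, while the other LP mice lay around the NP range. Per2 had 46.6 and 60.5 in animals 2 and 5, against 359 to 503 in the other LP mice and 274 to 363 in NP. Per3 had 210 and 227, against 827 to 1283 and 797 to 901. Ciart, a repressor of CLOCK and BMAL1, had 41.2 and 28.7, against 86.1 to 214 and 146 to 195.

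Arntl, which is expressed in antiphase to these genes, ran the other way. It had 108 and 84.1 normalised counts in LP animals 2 and 5, 8.81, 1.26 and 32.3 in animals 13, 15 and 20, and 7.74 to 21.5 in NP. Npas2, a partner of BMAL1 in place of CLOCK, had 33.3 and 44.1 in animals 2 and 5, and 4.40 to 11.3 in the other 8 mice. Over all 10159 genes, animals 2 and 5 both lay at least 1 log2 unit below the other 8 mice in 12, of which 7 were Ciart, Dbp, Hlf, Per1, Per2, Per3 and Tef, and both lay that far above in 1, Adam19. The remaining 5 lower genes were Adh1, Cys1, Hamp, Rhobtb1 and Sfrp5. The median log2 fold change of 20 tested clock and clock output genes was −0.26 with all LP mice, 0.10 without animals 2 and 5 and −0.58 without animals 13 and 20, beside 0.02, 0.02 and 0.00 over all genes tested. The study's methods place collection in the middle of the light phase, in fed mice, unless stated otherwise. The labels give no time for each heart, and its part in these values was not tested.

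Promoters of 4 of these clock genes are shown because their letters carry the elements just named. They were read from RefSeq on GRCm38.p6, 5′ to 3′ on the strand of the gene, within windows from 250 bases before to 50 bases after the transcript start, with E-boxes (CACGTG) or D-boxes (TTATGTAA, searched on both strands) in capitals. The stretches are chr3:95882247-95882401 on the minus strand for Ciart, chr11:69098726-69098845 on the plus strand for Per1, chr15:81802489-81802608 on the plus strand for Tef, and chr4:151044796-151044915 on the minus strand for Per3.
Ciart: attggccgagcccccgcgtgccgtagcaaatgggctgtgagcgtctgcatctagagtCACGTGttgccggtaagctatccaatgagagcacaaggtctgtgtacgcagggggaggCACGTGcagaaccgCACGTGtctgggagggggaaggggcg
Per1: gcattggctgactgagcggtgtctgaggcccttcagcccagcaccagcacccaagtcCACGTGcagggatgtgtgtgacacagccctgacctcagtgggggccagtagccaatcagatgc
Tef: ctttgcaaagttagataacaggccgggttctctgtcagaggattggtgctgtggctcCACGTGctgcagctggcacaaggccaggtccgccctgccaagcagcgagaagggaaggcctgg
Per3: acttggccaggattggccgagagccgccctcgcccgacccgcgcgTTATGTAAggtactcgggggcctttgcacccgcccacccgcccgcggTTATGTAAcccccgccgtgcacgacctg

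Ciart held 3 E-boxes within its window, and Per3 held 2 D-boxes. Of 22 windows of the 17 clock genes with a RefSeq window, 6 held an E-box (27.3%), beside 7.15% of all 32851 windows. A D-box was found in 1 (4.55%), beside 0.938% of all windows. The E-box windows were those of Bhlhe41, Ciart, Cry1, Per1 and Tef. Of the clock genes low in animals 2 and 5, only Ciart, Per1 and Tef thus had an E-box match. A match of letters is a description of the sequence and says nothing of which factor was bound in these hearts.

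Genes shared by the whole LP group were taken as those with all 5 LP mice on one side of all 5 NP mice, at a base mean over 50. LP lay below NP in 37 genes (0.364% of 10159) and above NP in 27 genes (0.266%). The same count for HF + LP against HF gave more genes, 59 below (0.581%) and 54 above (0.532%), and neither pair of counts was tested against the other. Separated groups in 0.364% and 0.266% of all genes describe these libraries, and the genes are not shown to differ between the diets. None of the 37 or 27 genes was called, and their edgeR adjusted p-values were 0.383 or more. The shared genes differed by little. Their log2 differences lay between 0.143 and 1.02 in size for the lower and between 0.134 and 1.24 for the higher genes, with medians of −0.40 and 0.41. Without LP animals 13 and 20 these medians were −0.31 and 0.34, and without animals 2 and 5 they were −0.44 and 0.47. The direction is fixed by the way the genes were chosen, also with mice left out, so these medians describe the genes and are no test.

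Kcnk1, a potassium channel gene on chr8:125995170-126030685, differed most among the lower genes. It had 55.9, 47.2, 55.3, 66.8 and 56 normalised counts in LP animals 2, 5, 13, 15 and 20. It had 161, 96.7, 82.6, 120 and 107 in NP animals 3, 4, 5, 6 and 8. The LP mice lay close together below NP, with a log2 fold change of −1.02 (SE 0.226, edgeR adjusted p = 0.387, DESeq2 adjusted p = 0.0271). The non-coding transcript 1700120C14Rik (chr15:99249511-99262044) had 213, 246, 286, 355 and 235 in LP animals 2, 5, 13, 15 and 20 and 374 to 433 in NP. Its log2 fold change was −0.61 (SE 0.127, edgeR adjusted p = 0.383), and DESeq2 with all groups called it at an adjusted p of 0.0094.

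Psme4, which encodes an activator that caps the proteasome, had 3124, 3517, 3032, 3251 and 2694 normalised counts in LP animals 2, 5, 13, 15 and 20, against 3679 to 5153 in NP (log2 fold change −0.42, SE 0.105, and −0.34 without animals 13 and 20). Me3, the mitochondrial malic enzyme that uses NADP, had 402 to 505 in LP and 553 to 662 in NP (−0.38, SE 0.0997, and −0.26 without animals 13 and 20). Mpc2, a subunit of the mitochondrial pyruvate carrier and the most abundant of the shared genes, had 6642 to 8456 in LP and 8498 to 9576 in NP (−0.24, SE 0.0875). For Mpc2 the highest LP mouse, animal 2, lay just under the lowest NP mouse.

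Hdac4, a histone deacetylase that represses MEF2 target genes in muscle, had 339, 352, 361, 479 and 503 normalised counts in LP animals 2, 5, 13, 15 and 20, against 506 to 633 in NP (log2 fold change −0.45, SE 0.128, and −0.52 without animals 13 and 20). Rptor, the Raptor subunit that defines mTORC1, had 170 to 208 in LP and 209 to 219 in NP, a log2 fold change of −0.14 (SE 0.104) that was the smallest of the 37. Lgi1, which encodes a secreted protein known from synapses, had 32.7 to 103 in LP and 116 to 140 in NP (−0.85, SE 0.244, and −0.51 without animals 13 and 20). Its lowest value was in animal 13. Agrn, a proteoglycan of basement membranes, had 359 to 474 in LP and 476 to 650 in NP (−0.45, SE 0.145). Thbs2, a matrix protein of the thrombospondin family, had 97.6 to 125 in LP and 132 to 156 in NP (−0.38, SE 0.157). B4galt2, a galactosyltransferase, had 35.2 to 53.5 in LP and 57.2 to 80.0 in NP (−0.60, SE 0.166).

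Among the shared higher genes, Foxo1 (chr3:52268336-52353221) was the member of the pathways named above. It had 625, 619, 585, 639 and 658 normalised counts in LP animals 2, 5, 13, 15 and 20 and 541, 505, 492, 567 and 522 in NP animals 3, 4, 5, 6 and 8. The group values of 625 ± 27.1 in LP and 525 ± 29.8 in NP (SD, n = 5) were narrow, and LP lay above NP by a log2 fold change of 0.25 (SE 0.0819, edgeR adjusted p = 0.508). The value was 0.26 without animals 13 and 20 and 0.25 without animals 2 and 5. Foxp1, another forkhead factor, had 1165 to 1253 in 4 LP mice and 1748 in animal 20, against 802 to 1119 in NP (0.41, SE 0.123, and 0.27 without animals 13 and 20). Sept6, a septin of the cytoskeleton, had 105, 143, 120, 84.5 and 377 in LP animals 2, 5, 13, 15 and 20, against 61.1 to 81.3 in NP, so the excess was largest in animal 20. The log2 fold change of Sept6 was 1.24 with all LP mice and 0.66 without animals 13 and 20.

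Alox12, a lipoxygenase that acts on arachidonate, had 185 normalised counts in LP animal 2 and 107 to 126 in the other LP mice, against 83.6 to 94.3 in NP (log2 fold change 0.57, SE 0.185). Fam234b had 54.5 to 103 in LP and 34.1 to 52.5 in NP (0.81, SE 0.191). Prps2, which makes the ribose phosphate donor for nucleotide synthesis, had 132 to 233 in LP and 111 to 128 in NP (0.50, SE 0.148). Tk2, the mitochondrial thymidine kinase, had 133 to 186 in LP and 108 to 131 in NP (0.40, SE 0.127). These higher genes were less abundant than many of the lower ones. Glipr2, a Golgi-associated protein, had 56.7 to 85.1 in LP and 40.6 to 46.2 in NP (0.59, SE 0.180). Dnaaf2, an assembly factor of ciliary dynein, had 71.8 to 92.6 in LP and 47.3 to 65.6 in NP (0.51, SE 0.141). Rpl21, a protein of the large ribosomal subunit with many near-identical gene copies, so that its reads may be assigned uncertainly, had 2439 to 2790 in LP and 2153 to 2402 in NP (0.16, SE 0.0975).

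**Figure D3:**
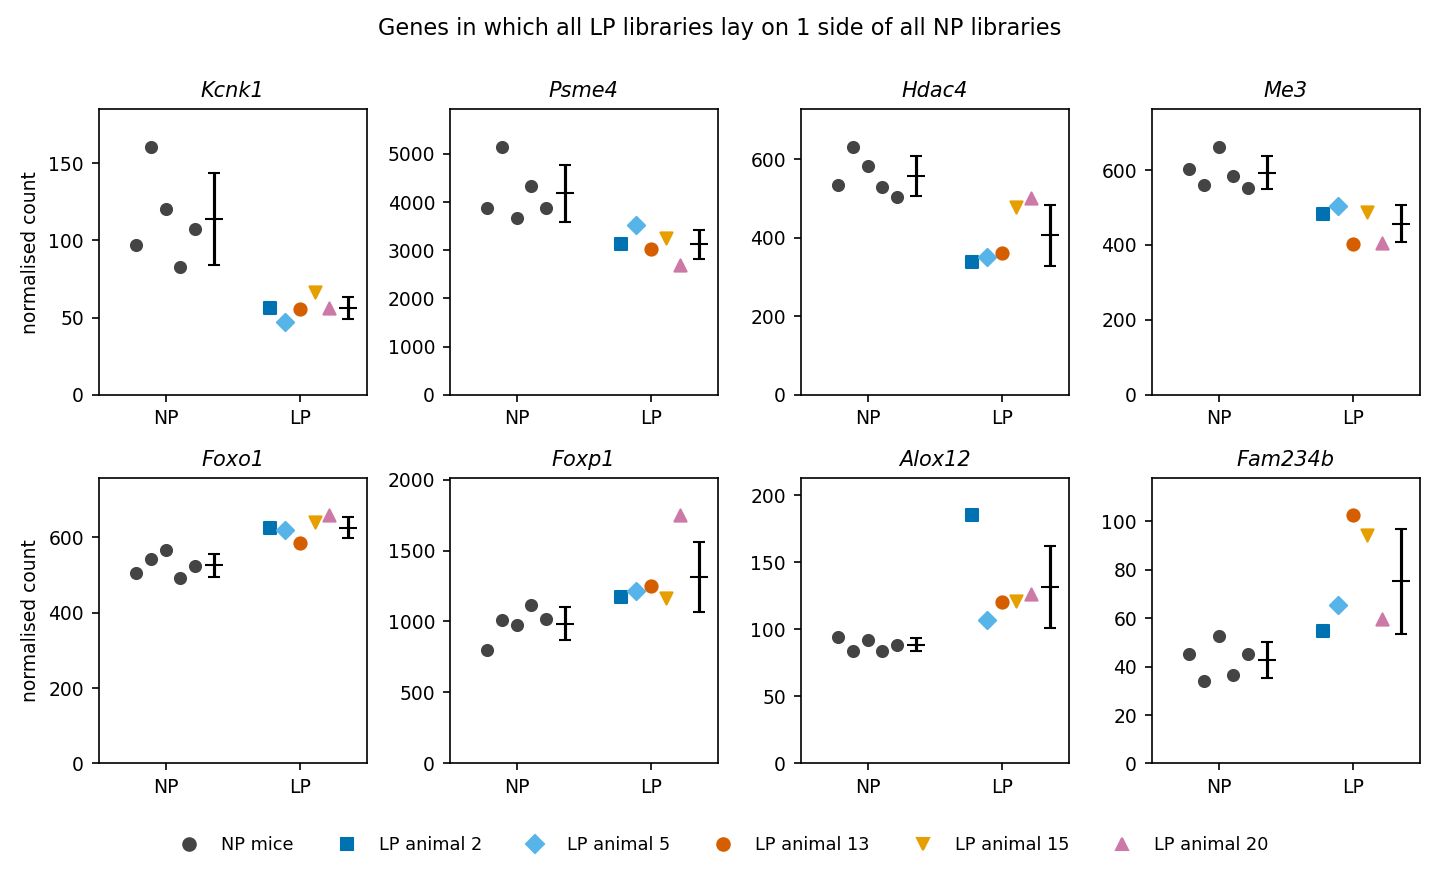
Normalised counts of 8 genes in which all 5 LP mice lay below (top) or above (bottom) all 5 NP mice, with each mouse as a point and the mean ± SD of each group as a bar beside it (n = 5). Foxo1 was at 625 ± 27.1 in LP and 525 ± 29.8 in NP, and Kcnk1 at 56.2 ± 6.97 and 114 ± 29.8.

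Other genes with small p-values overlapped in 1 mouse or more. Tfrc, the transferrin receptor that imports iron, had 333, 436, 606, 353 and 334 normalised counts in LP animals 2, 5, 13, 15 and 20 and 815, 495, 751, 455 and 1135 in NP animals 3, 4, 5, 6 and 8 (log2 fold change −0.82, SE 0.224, edgeR adjusted p = 0.387). LP animal 13 lay above 2 of the NP mice, and the value was −0.96 without animals 13 and 20. Enho, which encodes the secreted peptide adropin, had 81.8 to 127 in LP and 125 to 189 in NP (−0.61, SE 0.162). Usp11, a deubiquitinating enzyme, had 84.1 to 155 in LP and 59.4 to 87.1 in NP (0.76, SE 0.186).

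Of the 64 shared genes, 53 had a RefSeq promoter window of 300 bases, and these had 71 windows. The element that ATF4 binds (TGATGNAA, both strands) was in 3 of the 71 (4.23%), beside 3.97% of all windows. The FOXO element (GTAAACA, both strands) was in 1 (1.41%), beside 3.65%, and the E-box in 4 (5.63%), beside 7.15%. The interferon-stimulated response element (both strands) was in 4 (5.63%), beside 3.44%, and the antioxidant response element (TGACNNNGC, both strands) in 8 (11.3%), beside 12.4%. The cAMP response element (TGACGTCA) and the D-box were in 0 of the 71, beside 1.79% and 0.938%. These shares rest on 8 windows or fewer. The matches in Me3 and Lgi1 are shown as the lower genes with the ATF4 letters, in capitals and lying on the opposite strand, at chr7:89632728-89632847 and chr19:38264506-38264625, both printed on the plus strand of GRCm38.p6. The remaining match was in Plek, a shared higher gene.
Me3: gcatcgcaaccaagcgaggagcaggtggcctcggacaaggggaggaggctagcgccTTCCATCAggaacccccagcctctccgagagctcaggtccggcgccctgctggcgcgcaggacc
Lgi1: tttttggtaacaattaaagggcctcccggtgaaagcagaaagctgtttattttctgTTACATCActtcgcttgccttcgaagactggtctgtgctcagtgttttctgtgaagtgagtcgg

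Members of the gene lists that follow were counted as higher or lower at an unadjusted p under 0.05, which over all genes tested gave 5.02% higher and 2.21% lower with all LP mice and 1.66% and 1.02% without animals 13 and 20. Of 36 tested genes of the ATF4 and integrated stress response, 1 was higher and 0 lower, and 2 and 1 without animals 13 and 20. The list's median log2 fold change was 0.02, beside 0.02 over all genes tested. Asns, the ATF4 target that makes asparagine, was the 1 higher gene, with 33.3, 22.6, 84.9, 46.6 and 38.0 normalised counts in LP animals 2, 5, 13, 15 and 20 and 12.4 to 38.2 in NP. It overlapped with NP in 3 mice, and its log2 fold change of 0.83 (SE 0.315) was 0.40 without animals 13 and 20. Atf4 itself had 1042 to 1510 in LP and 971 to 1818 in NP. Trib3, another ATF4 target, had a log2 fold change of −0.34 (SE 0.200), and the one-carbon enzyme Mthfd2 of 0.39 (SE 0.200).

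Of 20 aminoacyl-tRNA synthetase genes, 0 passed in either direction, with a median of −0.05. Of 30 amino acid transporters, 2 were higher and 0 lower (2 and 1 without animals 13 and 20), and the median was 0.13 with all LP mice and −0.04 without animals 13 and 20. Slc7a1, the carrier of arginine and lysine, had 519 and 485 normalised counts in LP animals 2 and 5 and 352 to 379 in the other LP mice, against 312 to 399 in NP. It thus lay above NP in those 2 mice alone (log2 fold change 0.26, SE 0.143). Of 43 genes of mTORC1 and GCN2 sensing, 0 were higher and 1 lower, Eif4e, the cap-binding factor of translation (−0.32, SE 0.122). Of 52 genes of AMPK, ULK1 and autophagy, 0 were higher and 1 lower, Map1lc3a, which encodes an LC3 protein of the autophagosome (−0.35, SE 0.153). Without animals 13 and 20, Eif4e was at −0.16 and Map1lc3a at −0.12, and 0 genes of either list passed.

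Of 30 genes of FOXO signalling and muscle atrophy, 2 were higher and 0 lower with or without animals 13 and 20, beside 5.02% and 2.21% of all genes with all LP mice, and the median was 0.00. Besides Foxo1, Irs2, an adaptor of the insulin receptor, had 254, 155, 163, 237 and 267 normalised counts in LP animals 2, 5, 13, 15 and 20 and 104 to 185 in NP, a log2 fold change of 0.65 (SE 0.222) with or without animals 13 and 20. LP animals 5 and 13 lay within the NP range for Irs2.

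Of 27 tested genes that break down branched-chain amino acids, none was called. At an unadjusted p under 0.05, 0 were higher and 2 lower, against 0 and 0 without animals 13 and 20, and 5 had a positive log2 fold change, beside 54.6% of all genes tested. The median was −0.17, and −0.12 without animals 13 and 20. Positive values were also few in other lists, so this is not particular to branched-chain genes. They numbered 3 of 46 for nuclear complex I genes and 9 of 50 for nuclear genes of complexes II to V. For mitochondrial ribosomal proteins they numbered 9 of 76, and for the constitutive proteasome 5 of 35. Ivd, the dehydrogenase of leucine breakdown, had 1910, 1641, 1530, 1721 and 1401 normalised counts in LP animals 2, 5, 13, 15 and 20, against 1895 to 2533 in NP (−0.38, SE 0.136, and −0.28 without animals 13 and 20). Only LP animal 2 entered the NP range for Ivd. Bckdha, a subunit of the dehydrogenase that commits these amino acids to breakdown, had 367 in animal 13 and 624 to 867 in the other LP mice, against 794 to 1105 in NP (−0.46, SE 0.183, and −0.20 without animals 13 and 20).

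Fatty acid genes that respond to PPAR included 1 higher and 5 lower of 35 tested, beside 5.02% and 2.21% of all genes, with a median of −0.13. The lower ones included Acaa2 (−0.35), Decr1 (−0.28), Slc25a20 (−0.26) and Cd36 (−0.24), which serve the uptake, transport and oxidation of fatty acids. Without animals 13 and 20, 0 were higher and 1 lower (beside 1.66% and 1.02%), the median was −0.12, and these 4 genes were at −0.23, −0.17, −0.16 and −0.077. Of 29 adipocyte and lipogenic genes, 15 were higher and 0 lower (2 and 0 without animals 13 and 20), and the median of 0.73 became −0.03 without animals 13 and 20. Of 20 cholesterol synthesis genes, 3 were higher and 0 lower (1 and 0 without animals 13 and 20), 18 had a positive log2 fold change (beside 54.6% of all genes tested), and the median was 0.19 with all LP mice and 0.10 without animals 13 and 20. Hsd17b7, an enzyme of cholesterol synthesis, had 267, 280, 306, 208 and 171 normalised counts in LP animals 2, 5, 13, 15 and 20 and 165 to 226 in NP (0.42, SE 0.152, and 0.46 without animals 13 and 20).

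Of 46 nuclear genes of complex I, 0 were higher and 2 lower (0 and 0 without animals 13 and 20), with a median of −0.15 that was −0.01 without animals 13 and 20. Of 8 protein genes of the mitochondrial genome, 0 were higher and 2 lower (likewise 0 and 0 without these mice), with a median of −0.29 that was −0.15 without animals 13 and 20 and −0.27 without animals 2 and 5. mt-Nd5, a complex I subunit, had 163870, 107249, 78614, 139989 and 122688 normalised counts in LP animals 2, 5, 13, 15 and 20, against 135054 to 182786 in NP. Animals 5, 13 and 20 lay below NP for this gene. Of 81 cytosolic ribosomal protein genes, 2 were higher and 0 lower at an unadjusted p under 0.05, and 0 in either direction without animals 13 and 20. A positive log2 fold change was found in 74, beside 54.6% of all genes tested, and the median was 0.09, with 0.10 without animals 13 and 20 and 0.10 without animals 2 and 5. Summed over the list, normalised counts were 278938 to 302521 in LP and 248440 to 290437 in NP, so the groups overlapped. The list was not tested as a set.

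Interferon response genes included 0 higher and 2 lower of 53 tested, with the same counts without animals 13 and 20, and the median was −0.22 with all LP mice, −0.26 without animals 13 and 20 and −0.09 without animals 2 and 5. Mx2, an antiviral GTPase, had 12, 12.3, 16.4, 21.4 and 10.8 normalised counts in LP animals 2, 5, 13, 15 and 20 and 20.3 to 43.3 in NP (log2 fold change −0.94, SE 0.337). Only LP animal 15 entered the NP range for Mx2. Irf7, which amplifies the interferon response, had 107 to 188 in LP and 110 to 514 in NP (−0.88, SE 0.455). NP animal 5 was the highest of the 10 mice for Mx2, Irf7 and Oas2.

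**Figure D4:**
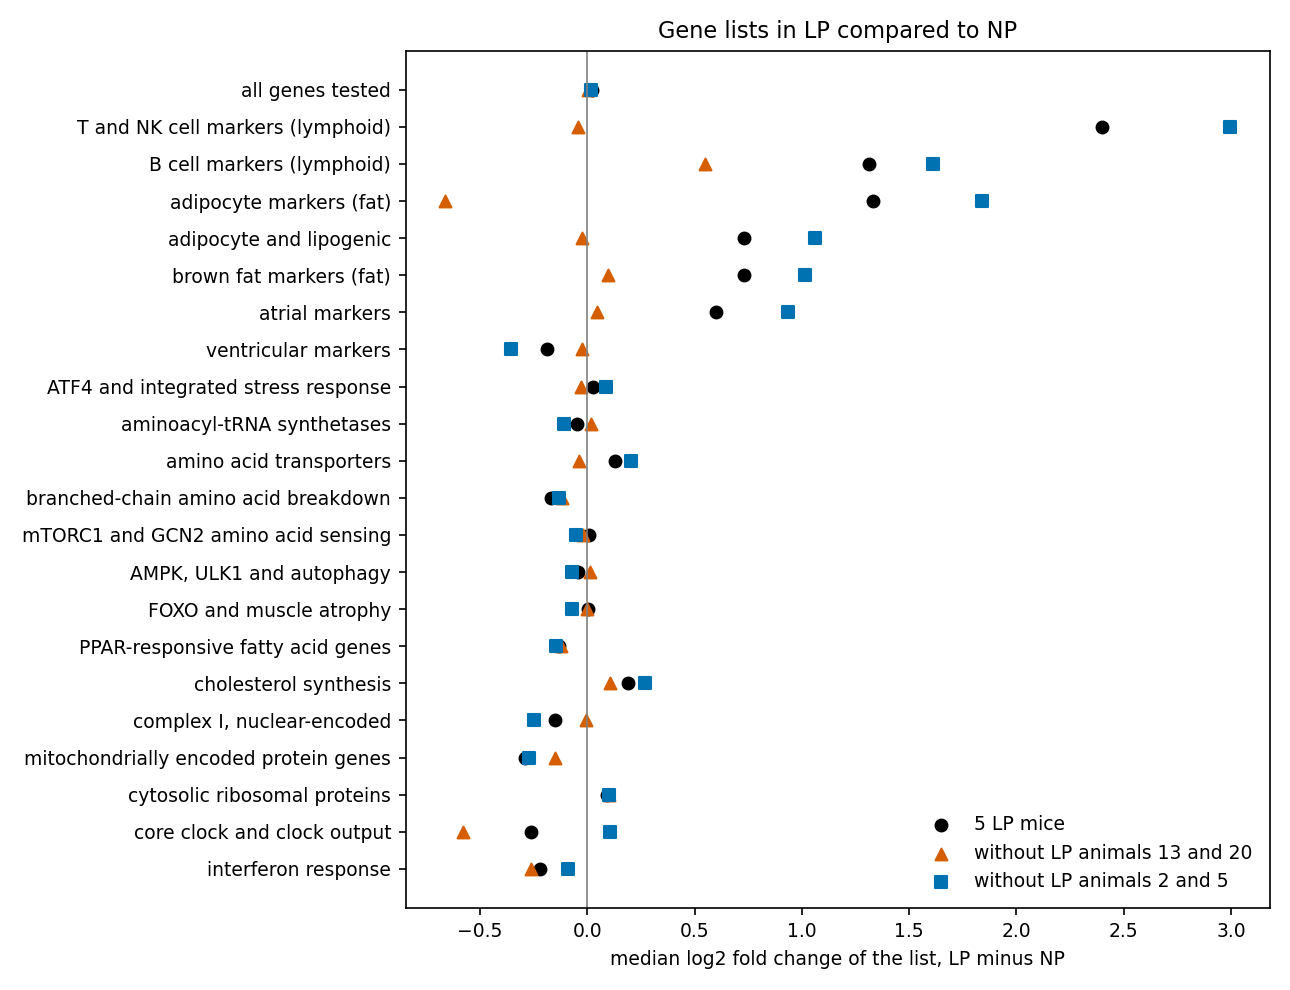
Median log2 fold change (LP minus NP) of each gene list, with all 5 LP mice (black circles), without LP animals 13 and 20 (orange triangles) and without LP animals 2 and 5 (blue squares). The adipocyte markers moved from 1.33 to −0.66 and the T and NK cell markers from 2.4 to −0.04 without animals 13 and 20, while the cytosolic ribosomal proteins stayed at 0.09 to 0.10.

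A further list held the genes chosen for qPCR or immunoblot in these diets, a choice made with these samples in hand. Of its 31 tested genes, 1 was higher and 0 lower (2 and 0 without animals 13 and 20), and the median was 0.02. Il1b, the cytokine interleukin-1 beta, had 21.3, 25.6, 17, 18.9 and 17.9 normalised counts in LP animals 2, 5, 13, 15 and 20 and 5.25 to 16.3 in NP. Every LP mouse lay above every NP mouse at a low count (log2 fold change 0.93, SE 0.335, edgeR adjusted p = 0.587), and the value was 1.07 without animals 13 and 20. Its base mean was under 50, so it is not among the 64 shared genes. Nppb, the ventricular natriuretic peptide of cardiac load, had 491, 571, 327, 210 and 160 in LP animals 2, 5, 13, 15 and 20 and 61.6 to 340 in NP. Animals 2 and 5 lay above NP, and its log2 fold change of 0.83 (SE 0.419) was 0.24 without them. Mtor had 461 to 645 in LP and 544 to 671 in NP.

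The same protein contrast was read on high fat, as HF + LP compared to HF, in mice that enter neither NP nor LP. No gene was called there by edgeR, with 337 higher (2.41%) and 340 lower (2.43%) at an unadjusted p under 0.05, and DESeq2 with all groups called 16. For the difference between the protein contrasts on the low-fat and high-fat diets (the interaction), edgeR called 0 genes, with 603 and 400 genes at an unadjusted p under 0.05 in its 2 directions, and DESeq2 called 1, Bmp10. Without LP animals 2 and 5, edgeR also called Bmp10 alone (interaction adjusted p = 0.000945). Of the 27 genes shared higher in LP, 17 had positive values on high fat, and 2 passed an unadjusted p under 0.05, both as higher. Of the 37 shared lower genes, 12 had negative and 25 positive values on high fat, and 5 passed that p, 2 as lower and 3 as higher. Of all 10159 genes, 55.6% had positive values and 4.36% passed that p in either direction. The medians on high fat were 0.03 for the shared higher and 0.06 for the shared lower genes. None of the 64 genes had all 5 HF + LP mice on the same side of all 5 HF mice as in LP, and nothing is read from that 0, since such genes made up only 0.532% and 0.581% of all. The smallest interaction adjusted p among them was 0.614 from edgeR. Among named genes, Thbs2 had a log2 fold change of −0.40 (SE 0.158) on high fat, Agrn −0.34 (SE 0.144), Foxo1 0.13 (SE 0.0818), Kcnk1 0.41 (SE 0.226) and Fasn 0.22 (SE 0.804).

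Interferon response genes had a median log2 fold change of −0.98 on high fat, with 47 of 53 lower at an unadjusted p under 0.05, beside the −0.22 and 2 of 53 on low fat. Irf7 had −2.25 (SE 0.460) on high fat and −0.88 (SE 0.455) on low fat, with an interaction adjusted p of 0.689 from edgeR. Mx2 had −1.05 (SE 0.320) and −0.94 (SE 0.337), so its values under protein restriction lay close together on both fat contents. The difference between the 2 contrasts over the list was not tested.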

How the data were processed

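RNA was sequenced from the left ventricles of 20 mice, 5 per diet. The authors aligned QuantSeq 3′ reads with BlueBee software and deposited a table of raw counts (Ensembl genes by mice), without normalisation. The submitters' processing notes name GRCm38 and DESeq2 1.22.2, while the annotation and the counting program are not given in the sources used here, so the assignment of reads from overlapping or near-identical genes is unknown. The table lists 15956 genes, none with fewer than 60 counts in total. Symbols of GENCODE M21 were matched for 15917 of them by identifier. Groups and animal numbers came from the sample labels. P-values measure the spread between these samples.

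The counts were passed to edgeR 4.0.16 (R 4.3.3), where filterByExpr kept 13991 genes. They were scaled by TMM and fitted by the quasi-likelihood model over all 20 libraries. Benjamini-Hochberg adjustment was used, and standard errors were derived from the F statistic. Normalised counts are counts divided by the effective library size relative to its mean. Calls needed an adjusted p under 0.01 together with a base mean over 50. Log2 CPM used a prior count of 2. Body weight, mitochondrial share and depth were compared by exact permutation (two-sided), which for 5 against 5 can reach p = 0.00794. The fit was tested on simulated counts. DESeq2 1.42.0, limma 3.58.1 (voom with sample weights), other scalings, filters and left-out libraries were alternatives.

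The genes named follow a rule: the 12 genes with the smallest p in each direction, up to 4 members of each list, up to 6 markers and 6 other genes with the largest gap over NP, genes of the study's qPCR and immunoblots, and the genes shared by all LP mice. Stxbp2, Adam19 and the other genes low in LP animals 2 and 5, and the shared genes beyond the first 24, were named after their values were seen. The members and lists were chosen with earlier results of these data known. Genes without a RefSeq promoter window were not searched.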

Additional observations from a re-analysis of the deposited data

Results flagged for a closer look

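In groups of 5 mice, 10 of 184 series of values held a mouse whose gap to its neighbour took more of the group's range than the 95% limit of Dixon's test. Chance alone does this in about 1 of 20 groups, a rate that does not apply to genes named for their gap over NP or for a small p, so the values below describe those genes and are no test of them. In LP animal 20 the share of the range was 0.833 for Trbc2, 0.856 for Trbc1, 0.786 for Lck, 0.797 for Bcl11b and 0.861 for Arpp21 on the log2 CPM scale, and 0.892 for the summed counts of T and NK cell markers. Foxp1, a gene in which all LP mice lay above NP, also had animal 20 apart, at 0.820. In LP animal 13 the summed counts of brown fat markers gave 0.778. In NP, Rptor had animal 6 apart at 0.773 and Rpl21 had animal 8 apart at 0.834, the one above and the other below the rest of its group.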

How the results depend on the processing

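In LP compared to NP, edgeR called 0 genes under every setting run except without LP animals 2 and 5 (4 genes), and DESeq2 called 4 with all groups and 0 with only the 2 groups. The animal numbers pair no LP and NP mice, since the groups share only the number 5, so a replicate block could be fitted only for HF + LP compared to HF, where the animal number as a block gave 0 calls. There DESeq2 called 16 genes with all groups and 27 with only the 2 groups, and leaving out mice gave 0 to 1. For the interaction DESeq2 called 1, and edgeR without LP animals 2 and 5 called 1. Genes with all LP mice on one side of NP numbered 110 with no base mean minimum and 89 to 179 with a mouse left out, since fewer mice must be apart. Genes high in 1 or 2 LP mice numbered 258 with no base mean minimum, 17 at a gap of 2 and 352 at a gap of 0.5 log2 units, 327 under the wider reading, and 69 to 154 with a mouse left out, the most without LP animal 15. With a mouse left out, the difference in body weight LP minus NP lay between −12.8 and −8.09 g.

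Directions turned in these cases. Without LP animals 13 and 20, log2 fold changes were −0.83 for Plin1, −1.04 for Pck1, −2.0 for Adipoq, −0.045 for Myl7, −0.10 for Trbc1, −0.0771 for Bcl11b, −0.65 for Igkc and −0.38 for Ighm. Without LP animals 13, 15 and 20 they were −0.52 for Plin1, −0.94 for Pck1, −2.66 for Adipoq, −2.15 for Nppa, −3.53 for Myl7, −4.73 for Bmp10, −2.34 for Dkk3, −0.63 for Trbc1, −0.94 for Igkc, −0.45 for Ighm, 0.0438 for Cd36 and −0.0043 for Rpl3. With 1 mouse left out, Myl7 ranged from −0.0829 (without LP animal 13) to 2.1 and Bcl11b from −0.26 (without LP animal 20) to 2.72. With limma voom and sample weights, Adipoq was at −0.49, Myl7 at −1.21 and Dkk3 at −0.36. A further 1688 values of named genes kept their direction and their side of the threshold, and 8 came past it. Since no gene was called in the main fit, keeping that side means staying uncalled. Genes named for a small p or for separated groups were chosen with their direction, so the count is no test of it. The counts behind Bmp10, Ucp1 and Elovl6 in NP were few, so the size of their fold changes is loosely fixed.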
